A study of Mus musculus with 6 samples.

Results

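Brown adipose tissue (BAT) burns fat when sympathetic nerves release noradrenaline onto it, and the density of those nerves is set in part by proteins that adipocytes make. Neurotrophins, among them BDNF, NT-3 and NT-4, are secreted growth factors that keep nerve endings alive and growing. Each acts on Trk receptor tyrosine kinases such as TrkB and TrkC, and all of them bind the receptor p75NTR. Calsyntenins and teneurins are membrane proteins that hold synapses together, and an adipocyte form of calsyntenin 3 promotes the release of S100B, a small calcium-binding protein that stimulates the outgrowth of sympathetic axons. The cell bodies of sympathetic neurons lie in ganglia outside the fat pad, so that a BAT sample holds their axons but little of their messenger RNA.

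The 8 genes described here are Clstn3 and Tenm2 (synaptic adhesion), S100b and Sncg (nerve-associated cytoplasmic proteins), Ntf3 (a neurotrophin), and Ntrk3, Ntrk2 and Ngfr (neurotrophin receptors). They were matched by gene symbol among 23282 rows, each of the 8 symbols had 1 row, and all 8 were among the 12995 genes that passed the filter on low counts. They were chosen by their known roles and by their measured counts in wild-type against Letmd1 KO BAT, so their own differences between the genotypes are given as a description and without a test.

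RNA came from the BAT of 3 wild-type and 3 Letmd1 KO mice, all of them male, of strain C57BL/6N and 5 weeks old. LETMD1 is a protein of the mitochondrial matrix. The KO mice, which descend from 1 embryonic stem cell clone, carry a knockout-first allele in every tissue, in which a lacZ and neomycin resistance cassette within an intron disrupts Letmd1, so that a difference seen in BAT need not arise in adipocytes. QuantSeq libraries read the 3′ end of each mRNA, and a count is therefore not proportional to transcript length.

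The libraries held between 6669577 and 14574273 counts. Levels are given as CPM, read counts divided by TMM-scaled library sizes (edgeR) and brought to a common total, and the limit that a count of 0 allows (3 counts) was between 0.176 and 0.396 CPM, counting error only. The TMM factors were between 0.852 and 0.886 in wild-type and between 1.14 and 1.17 in Letmd1 KO libraries, and leaving them out moved the middle of all fold changes from 0.03 to 0.44 on the log2 scale. Counts of the targeted gene were 5658, 6490 and 5266 in the wild type and 0, 0 and 1 in KO animals, as labelled. Nothing in the labels says that replicates differ in more than the animal, and p-values measure the spread between these mice.

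The 8 genes fell into a group with large differences and a group without. Tenm2 and Sncg were higher in Letmd1 KO BAT, Clstn3, Ntrk2 and Ntrk3 were lower, and S100b, Ntf3 and Ngfr did not pass the threshold. The threshold throughout was 0.05 for the p of edgeR's quasi-likelihood test, adjusted by Benjamini and Hochberg's method over all genes tested. By it 5 of the 8 genes were called, where 46% of all genes tested were; 2 were called higher, where 23.7% of all genes were, and 3 lower, where 22.3% were. The CPM of the genotypes did not overlap for 6 of the 8, where 57.3% of all genes tested had no overlap. Since this contrast was in view when the genes were chosen, nothing is read from these counts. In whole tissue, fewer cells of a type and less RNA in each cell cannot be told apart.

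**Figure D1:**
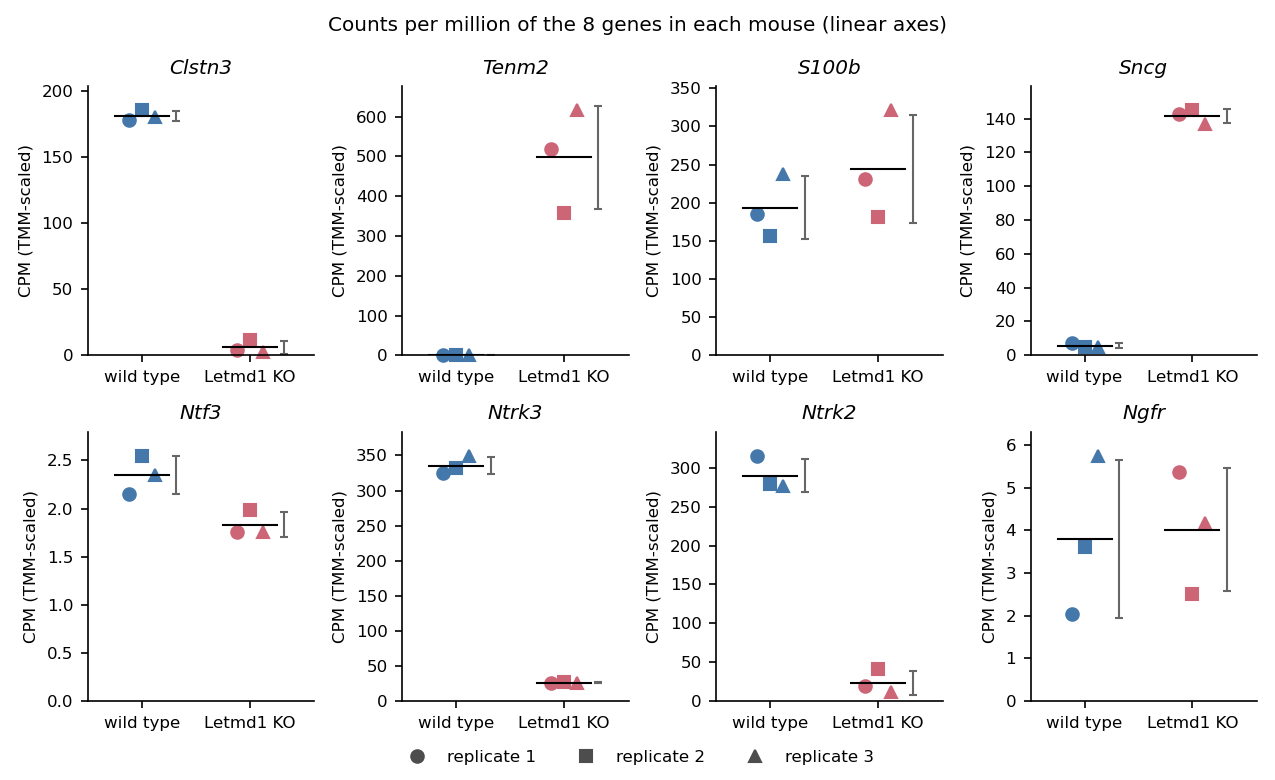
CPM (TMM-scaled, linear axes from 0) of each of the 8 genes in the 3 wild-type (blue) and 3 Letmd1 KO (red) mice, with the symbol giving the replicate, the black line the mean and the grey bar the mean ± SD. Clstn3, Ntrk3 and Ntrk2 stand far lower and Tenm2 and Sncg far higher in Letmd1 KO BAT, while the mice of both genotypes overlap for S100b and Ngfr.

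Clstn3 encodes calsyntenin 3, a cadherin-like synaptic organiser that also has the adipocyte form named above. It lies on the minus strand of chromosome 6 (chr6:124430759-124464794, GRCm38, the assembly called mm10 in the labels), and RefSeq lists Clstn3b as a synonym. The annotation (GENCODE vM21) gives 3 protein-coding transcripts of Clstn3 with 2 distinct 3′ ends, and the counts are summed under the symbol, so that the neuronal and the adipocyte form cannot be told apart. The 300 bases around its RefSeq start are shown because Clstn3 had the most negative fold change of the 8 genes and because this window held a full cyclic AMP response element, found in no window of the other genes that had one. RefSeq gives Clstn3 another window at a second start (chr6:124462695-124462994), in which none of the motifs searched was found. Which start was in use cannot be seen from reads of the 3′ end. Both windows lie near the 5′ end of the gene, and no source used here assigns either of them to the adipocyte form. Cyclic AMP carries the noradrenaline signal in brown adipocytes. In capitals is the palindrome TGACGTCA, which lies across the annotated start of transcription. Whether it has any part in the Clstn3 difference was not tested.
Clstn3 (RefSeq, GRCm38.p6, chr6:124464735-124465034, minus strand, 5′ to 3′): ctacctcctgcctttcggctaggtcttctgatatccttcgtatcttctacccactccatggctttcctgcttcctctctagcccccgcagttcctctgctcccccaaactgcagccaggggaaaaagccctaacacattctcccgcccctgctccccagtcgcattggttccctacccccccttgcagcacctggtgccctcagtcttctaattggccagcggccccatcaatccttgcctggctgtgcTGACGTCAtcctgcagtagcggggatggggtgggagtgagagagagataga

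The Clstn3 counts were 1656, 1750 and 1384 in wild-type BAT against 34, 89 and 45 in KO animals. In CPM these were 178, 185 and 180 in wild-type BAT and 3.73, 11.8 and 2.64 in Letmd1 KO BAT. The wild-type mice lay within a narrow band, far above all KO mice, and KO replicate 2 was the highest of the KO mice. The mean was 181 ± 3.62 CPM in wild-type and 6.04 ± 4.98 CPM in Letmd1 KO BAT (SD, n = 3 each), 30.0-fold lower. The log2 fold change was -4.97 (standard error 0.44), the seventh most negative of the genes tested, and without KO replicate 2 it was -5.79. Clstn3 moved from a level above 92.2% of the genes tested in wild-type BAT to one above 22.6% of them.

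The other calsyntenins did not share this difference. Clstn1, which binds the motor protein kinesin-1 and is the broadly expressed member, had 30.8 ± 1.76 CPM in wild-type and 46.0 ± 5.65 CPM in Letmd1 KO BAT (SD, n = 3 each) and rose with a log2 fold change of 0.58 (adjusted p = 0.00683, edgeR). Clstn2 had between 2 and 7 counts in every mouse and was not tested.

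S100b encodes the calcium-binding protein that is made by glia and by brown adipocytes and is secreted with the help of calsyntenin 3. It lies on chr10:76253853-76261159 (GRCm38, plus strand). Dip2a, on the other strand, extends over the end of S100b, and as no source used here says whether strand was used in counting, reads of the pair at that end cannot be told apart. The S100b level was 186, 157 and 238 CPM in wild-type BAT against 232, 181 and 321 CPM in KO animals, from 1369 to 5465 counts. The values interleave, with wild-type replicate 3 above KO replicates 1 and 2. The means were 194 ± 41.2 CPM and 245 ± 70.9 CPM (SD, n = 3 each), and the log2 fold change was 0.34 (standard error 0.22). It lay between 0.09 and 0.52 with each mouse left out and was 0.77 with library size alone. Dip2a had between 19.6 and 35.8 CPM, below the S100b level in every mouse. Ager, which encodes RAGE, a receptor for S100B, had 1.29 ± 0.724 CPM and 2.79 ± 0.304 CPM (SD, n = 3 each), with a log2 fold change of 1.0 that did not pass the threshold (adjusted p = 0.0698, edgeR). With library size alone the adjusted p of Ager was 0.0177, and without wild-type replicate 2 it was 0.0269. S100b was thus above 95.4% of the genes tested in Letmd1 KO BAT, where Clstn3 was low.

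Tenm2 encodes teneurin-2, a large transmembrane protein that binds latrophilins on the facing cell at synapses. The gene spans 1229.3 kb on chr11:36006656-37235964 (GRCm38, minus strand), with 3 protein-coding transcripts that have 3 distinct 3′ ends. Its RefSeq window is shown because Tenm2 had the most positive fold change of all 12995 genes tested. The window lies inside the span that GENCODE gives the gene, at the start of a shorter transcript, and which start was in use cannot be seen from reads of the 3′ end. No letters are in capitals, since neither a cyclic AMP response element nor a TATA box was found in it.
Tenm2 (RefSeq, GRCm38.p6, chr11:36944192-36944491, minus strand, 5′ to 3′): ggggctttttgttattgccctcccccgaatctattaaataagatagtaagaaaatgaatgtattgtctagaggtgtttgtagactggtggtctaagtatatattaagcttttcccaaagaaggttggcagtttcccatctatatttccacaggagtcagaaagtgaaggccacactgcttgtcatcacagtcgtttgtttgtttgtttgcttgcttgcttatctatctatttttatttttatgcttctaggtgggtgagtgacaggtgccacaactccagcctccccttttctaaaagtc

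Tenm2 had 5, 2 and 6 counts in wild-type BAT against 4736, 2714 and 10481 counts in KO animals. In CPM these were 0.539, 0.212 and 0.782 against 520, 359 and 616. The wild-type mice were near the limit of detection, with replicate 2 under 3 counts, and no KO mouse came near them. The summed counts, 13 and 17931, gave a 1080-fold higher level in Letmd1 KO BAT after scaling (95% interval from 632-fold to 2029-fold, counting error only). The fitted log2 fold change, which an added prior count of 2 draws towards 0, was 9.49 (standard error 0.35). It stayed between 9.19 and 9.78 with each mouse left out. With a prior count of 0.5 it was 9.84, and with DESeq2 it was 9.96. In Letmd1 KO BAT, at 498 ± 130 CPM (SD, n = 3), Tenm2 was the most abundant of the 8 genes, above 98.3% of all genes tested.

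Other members of the teneurin system were measured beside it. Genes on the other strand extend over the annotated ends of Tenm4 and Adgrl1, so that reads at those ends cannot be told apart. Tenm4, a teneurin known for its part in myelination, had 190, 256 and 290 counts in wild-type and 1905, 1372 and 3965 in Letmd1 KO mice, and rose from 28.5 ± 8.73 to 208 ± 25.8 CPM (SD, n = 3 each), with a log2 fold change of 2.87 (adjusted p = 1.4e-05, edgeR). Tenm3 did not pass the threshold (log2 fold change 1.19, adjusted p = 0.166, edgeR), and Tenm1 had at most 2 counts in a mouse. Of the latrophilins, which are the adhesion receptors of teneurins, Adgrl1 rose (0.80) and Adgrl4, an endothelial member of the family that is not known to bind teneurins, fell (-1.16). Adgrl2 did not pass the threshold (0.60, adjusted p = 0.0712, edgeR), and Adgrl3 had at most 4 counts. Flrt2, a further latrophilin ligand, rose by 1.99 on the log2 scale. Of the 7 tested genes of this list other than Tenm2, 3 were higher and 1 lower, with a median log2 fold change of 0.80. Of all genes tested, 23.7% were higher and 22.3% lower.

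Ntf3 encodes neurotrophin-3 (NT-3), which adipocytes secrete and which acts on TrkC of sympathetic axons. It lies on chr6:126101412-126166910 (GRCm38, minus strand). Its counts were low, 20, 24 and 18 in the wild-type and 16, 15 and 30 in the KO mice, which is 2.15, 2.54 and 2.35 against 1.76, 1.98 and 1.76 CPM. The KO mice lay just under the wild-type mice without overlap, at a depth where a few reads decide the order. The means were 2.35 ± 0.194 CPM and 1.83 ± 0.129 CPM (SD, n = 3 each). The log2 fold change was -0.33 (standard error 0.35), 0.05 with library size alone and -0.93 after quantile normalization, so its direction depends on the scaling.

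The ligand genes of TrkB were as scarce. Bdnf had 12, 37 and 18 counts in wild-type and 4, 10 and 51 in Letmd1 KO mice, with a log2 fold change of -0.54 (adjusted p = 0.489, edgeR). The genotypes overlap. Ntf5, which encodes NT-4, had no counts in any mouse. Unadjusted, the p of Bdnf was 0.386 with edgeR, 0.355 with DESeq2 and 0.053 with limma. Furin, whose protease cleaves the precursors of neurotrophins and of many other proteins, was far more abundant and fell from 139 ± 11.4 to 61.0 ± 9.94 CPM (SD, n = 3 each), with a log2 fold change of -1.18 (adjusted p = 0.000135, edgeR).

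**Figure D2:**
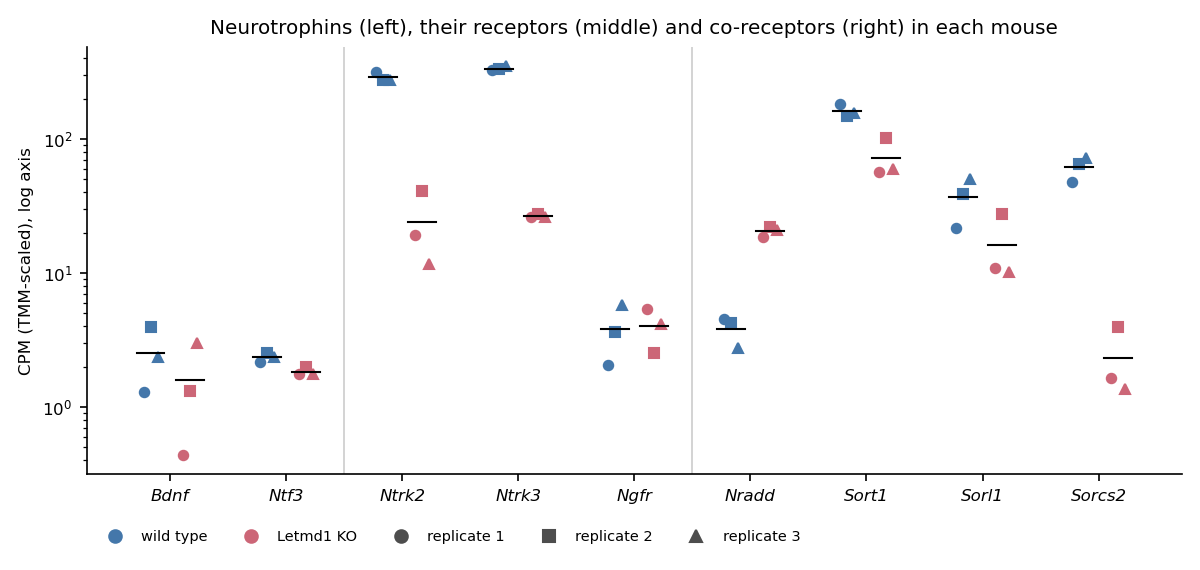
CPM (TMM-scaled, log axis) of the neurotrophin genes Bdnf and Ntf3, neurotrophin receptors and co-receptors in each wild-type (blue) and Letmd1 KO (red) mouse, with black lines at the means. Bdnf and Ntf3 sit below 5 CPM in every mouse of both genotypes, while Ntrk2, Ntrk3, Sort1 and Sorcs2 stand above 40 CPM in every wild-type mouse and lower in Letmd1 KO mice.

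Ntrk3 encodes TrkC, the receptor of NT-3. It spans 562.1 kb on chr7:78175959-78738012 (GRCm38, minus strand). Ntrk3 counts were 3020, 3139 and 2677 in wild-type BAT (325, 332 and 349 CPM), and KO animals had 240, 207 and 447 counts (26.3, 27.4 and 26.3 CPM). Both groups were tight, and they lay far apart. The mean was 336 ± 12 CPM in wild-type and 26.6 ± 0.611 CPM in Letmd1 KO BAT (SD, n = 3 each), 12.6-fold lower. The log2 fold change of -3.64 had a standard error of 0.11, the smallest among the 8 genes, and leaving out each mouse kept it between -3.67 and -3.63. In wild-type BAT the Ntrk3 transcript was above 96% of all genes tested, while that of its ligand Ntf3 was above 14.3% of them.

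Ntrk2 encodes TrkB, the receptor of BDNF and NT-4, on chr13:58806569-59133970 (GRCm38, plus strand). Its RefSeq window is shown as that of a receptor gene that was lower in Letmd1 KO BAT. For Ntrk3 the promoter set used here held no window. No letters are in capitals, as no motif of this kind was found.
Ntrk2 (RefSeq, GRCm38.p6, chr13:58806319-58806618, plus strand, 5′ to 3′): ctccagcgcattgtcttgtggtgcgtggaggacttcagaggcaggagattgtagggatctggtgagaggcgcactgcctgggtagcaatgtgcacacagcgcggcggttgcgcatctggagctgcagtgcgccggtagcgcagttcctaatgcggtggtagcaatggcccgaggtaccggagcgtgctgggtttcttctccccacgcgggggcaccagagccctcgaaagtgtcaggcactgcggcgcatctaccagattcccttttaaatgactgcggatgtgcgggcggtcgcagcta

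The Ntrk2 counts were 2920, 2628 and 2123 in wild-type and 174, 311 and 198 in Letmd1 KO mice, or 314, 278 and 276 against 19.1, 41.1 and 11.6 CPM. The genotypes did not overlap. As for Clstn3, KO replicate 2 was the highest of the KO mice and KO replicate 3 the lowest. The means were 290 ± 21.4 CPM and 23.9 ± 15.3 CPM (SD, n = 3 each), 12.1-fold lower in Letmd1 KO BAT. The log2 fold change was -3.62 (standard error 0.38) and was -4.25 without KO replicate 2. The fold changes of Ntrk2 and Ntrk3 were thus alike, but their spread was not. The ratio of the Ntrk2 to the Ntrk3 level was 0.967, 0.837 and 0.793 in wild-type BAT against 0.725, 1.5 and 0.443 in KO animals. The KO ratios lie on both sides of the wild-type ratios.

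Both Trk genes encode receptors with and without a kinase domain, which differ at their 3′ ends. GENCODE gives Ntrk2 7 protein-coding transcripts with 6 distinct 3′ ends and Ntrk3 6 transcripts with 6 distinct ends, and the counts are summed over them, so that kinase-bearing and truncated receptors cannot be told apart.

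Ngfr encodes p75NTR, the receptor shared by the neurotrophins, which non-myelinating Schwann cells and sympathetic neurons make. It lies on chr11:95568818-95587735 (GRCm38, minus strand). It had 19, 34 and 44 counts in wild-type and 49, 19 and 71 in Letmd1 KO mice, or 2.05, 3.60 and 5.73 against 5.38, 2.51 and 4.17 CPM. The values of the genotypes were mixed. The means were 3.79 ± 1.85 CPM and 4.02 ± 1.44 CPM (SD, n = 3 each), and the log2 fold change of 0.10 (standard error 0.43) was smaller than its error. It changed sign with quantile normalization (-0.35), and leaving out each mouse moved it from -0.19 to 0.48.

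The co-receptors of p75NTR and the Trk receptors were measured in the same libraries. Sort1, which encodes sortilin, the co-receptor of p75NTR for neurotrophin precursors, fell from 162 ± 17.4 to 72.8 ± 25.3 CPM (SD, n = 3 each), with a log2 fold change of -1.16 (adjusted p = 0.00194, edgeR). Sorcs2, a sortilin relative that binds TrkB and p75NTR, fell further. It had 447, 618 and 551 counts in wild-type and 15, 30 and 23 in Letmd1 KO mice, and its log2 fold change was -4.72 ± 0.35 (standard error), with an adjusted p of 1.3e-05 (edgeR). Sorl1, of the same family, fell by 1.19 on the log2 scale (adjusted p = 0.0373, edgeR), although KO replicate 2 lay above wild-type replicate 1. Nradd, whose product resembles p75NTR without its ligand-binding part, rose from 3.83 ± 0.960 to 20.4 ± 1.81 CPM (SD, n = 3 each). Of the 6 tested genes on the list of receptors and co-receptors other than Ntrk2, Ntrk3 and Ngfr, 3 were lower and 1 higher, where 22.3% and 23.7% of all genes tested were. Their median log2 fold change was -0.68, beside 0.03 for all genes tested.

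Sncg encodes gamma-synuclein, a small protein of peripheral neurons that white adipocytes make as well. It lies on chr14:34370274-34374789 (GRCm38, minus strand). Its RefSeq window is shown beside that of Tenm2, the other gene that was higher. It held no full cyclic AMP response element and 1 copy of its core TGACG.
Sncg (RefSeq, GRCm38.p6, chr14:34374620-34374919, minus strand, 5′ to 3′): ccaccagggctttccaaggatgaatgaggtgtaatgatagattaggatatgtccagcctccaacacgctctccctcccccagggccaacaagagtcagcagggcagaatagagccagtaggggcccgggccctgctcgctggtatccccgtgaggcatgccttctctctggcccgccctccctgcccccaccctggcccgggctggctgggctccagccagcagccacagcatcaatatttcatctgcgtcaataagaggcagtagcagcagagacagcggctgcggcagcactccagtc

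Sncg had 69, 45 and 38 counts in wild-type and 1302, 1096 and 2333 counts in Letmd1 KO mice, or 7.43, 4.77 and 4.95 against 143, 145 and 137 CPM. The KO mice were close to each other and all far above the wild-type mice. The means were 5.72 ± 1.49 CPM and 142 ± 4.06 CPM (SD, n = 3 each), 24.8-fold higher in Letmd1 KO BAT, and the log2 fold change was 4.58 (standard error 0.17). Its relative Sncb, of the same protein family, had no counts in any mouse.

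The order of the genes by level differed between the genotypes. In wild-type BAT it was Ntrk3, Ntrk2, S100b, Clstn3, Sncg, Ngfr, Ntf3 and Tenm2, from the highest mean to the lowest. The mice of S100b and Clstn3 overlapped, as did those of Sncg and Ngfr and those of Ngfr and Ntf3, and the other neighbours did not. In Letmd1 KO BAT the order was Tenm2, S100b, Sncg, Ntrk3, Ntrk2, Clstn3, Ngfr and Ntf3. There Ntrk3 and Ntrk2 overlapped, as did Ntrk2 and Clstn3 and Clstn3 and Ngfr. The ratio of the Tenm2 to the Clstn3 level was at most 0.00433 in the wild-type mice and at least 30.5 in the Letmd1 KO mice. KO replicate 2, in which Clstn3 and Ntrk2 were highest among the KO mice, had the lowest Tenm2 and S100b among them.

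**Figure D3:**
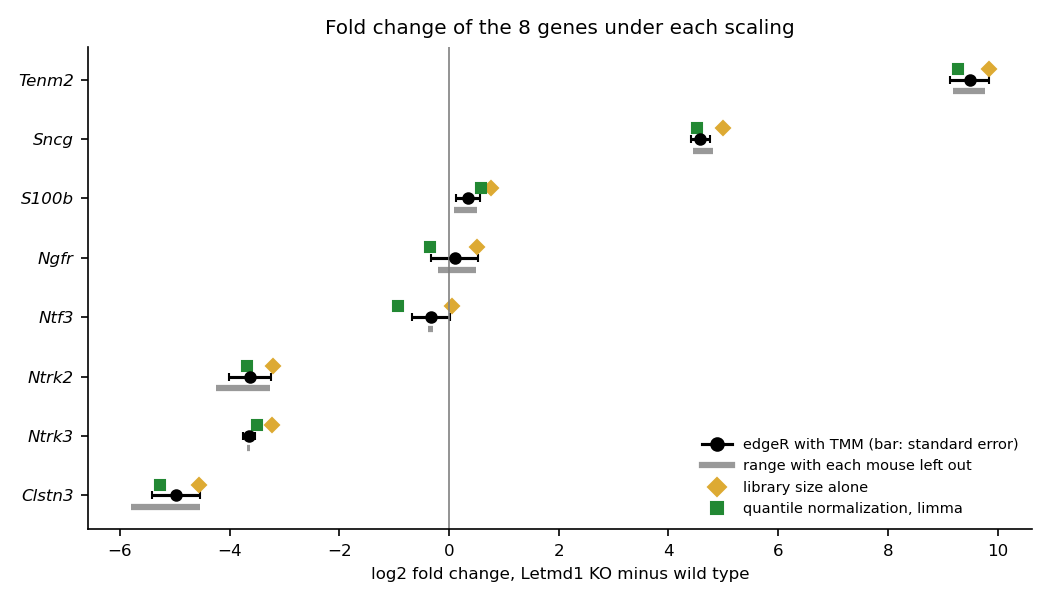
Log2 fold change (Letmd1 KO minus wild type) of the 8 genes from edgeR with TMM scaling (black, bar: standard error), its range with each mouse left out (grey), and its value with library size alone (yellow) or after quantile normalization with limma (green). Clstn3, Ntrk3, Ntrk2, Sncg and Tenm2 stay on their side of 0 throughout, and Ntf3 and Ngfr cross it.

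The genes most like each of the 8 were sought by the root mean square difference of log2 CPM profiles, each centred on its own mean over the 6 mice, among 11923 genes with a mean of at least 20 counts. Most of any such likeness comes from the difference between the genotypes, which the choice of the 8 genes had used. Nearest to Clstn3 was Sorcs2 (0.32), followed by Atp4b, a proton pump subunit (0.48), and Elovl3, a fatty acid elongase of brown fat (0.48), and no other gene came within 0.5. Nearest to Tenm2 was Gdf15, a hormone of cellular stress (0.49), and the next genes, Mmp12 (1.11) and Plscr2 (1.13), were much farther away. Gdf15 had a mean of 0.266 CPM in wild-type and 228 CPM in Letmd1 KO BAT.

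Ntrk2 and Ntrk3 had different neighbours. For Ntrk2 they were Apoc1, an apolipoprotein (0.26), Nat8l, which makes N-acetylaspartate in brown adipocytes (0.28), and Acaca, the acetyl-CoA carboxylase of fatty acid synthesis (0.30). For Ntrk3 they were Rasd1, a small GTPase (0.14), Hyal1, a hyaluronidase (0.18), and Acsl5, an acyl-CoA synthetase (0.26). For each of the pair, 22 genes lay within 0.5. Sncg was nearest to Bcl2a1a, a survival factor of leukocytes (0.25), Pla2g2e, a secreted phospholipase (0.26), and Nrip2, a nuclear receptor interacting protein (0.28), with 36 genes within 0.5. The profiles of S100b, Ntf3 and Ngfr were not distinctive, with 6319, 8065 and 1988 genes within that distance.

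The promoter windows of the 8 genes other than Ntrk3, for which the promoter set used here held none, were searched on both strands. The search was for 6 motifs, which were chosen after the sequences had been seen. The full cyclic AMP response element, TGACGTCA, was in the window of Clstn3 shown above, and 1.79% of 32851 RefSeq promoter windows of the same length hold it. Its core TGACG, which each full element contains, was found in 20.8% of all windows, and among the 8 genes in those of Clstn3 and Sncg. The TATA box TATAAA (13.6% of all windows), the C/EBP-ATF core TGATGNAA (3.97%) and the PPAR direct repeat (AGGTCA, any base, AGGTCA; 0.0396%) were found in no window of the genes that had one. The E-box CANNTG, present in 72.3% of all windows, was in at least 1 window of every such gene. A match describes the letters and shows no binding.

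Beyond the 8 genes, 11 lists of related pathways held 125 further genes, of which 78 were tested, 34 were higher in Letmd1 KO BAT, 13 were lower and 31 did not pass the threshold. Their median log2 fold change was 0.61, beside 0.03 for all genes tested. With library size alone 48 were higher and 9 lower, and after quantile normalization 23 were higher and 13 lower. Of all genes tested, 23.7% were called higher and 22.3% lower, and the counts of this list and those below stand beside these shares. The lists were written with earlier results of these data known. The signal adaptors and processing enzymes of neurotrophins had 6 of 16 tested genes higher and 4 lower. Sh2b2, an adaptor of insulin and Trk receptors, fell from 282 ± 62.5 to 124 ± 8.71 CPM (SD, n = 3 each). Its relative Sh2b1 fell by 0.60 on the log2 scale, a call lost with library size alone (adjusted p = 0.399, edgeR) and without wild-type replicate 2 (adjusted p = 0.056, edgeR). Ngfrap1, which encodes a partner of p75NTR, rose by 1.59, Gab2, a docking protein, by 1.12, and Arhgdia, a p75NTR-bound inhibitor of small GTPases, by 0.63 on the log2 scale.

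GDNF family ligands support the same sympathetic neurons as neurotrophins and bind GFRA co-receptors. Of their 5 tested genes 4 were higher and 1 lower. Gfra1, the co-receptor of GDNF, had 20, 14 and 36 counts in wild-type and 222, 226 and 536 in Letmd1 KO mice, with a log2 fold change of 3.31 (adjusted p = 6.0e-05, edgeR). Gfra4 rose by 2.53, Gfra3, the artemin co-receptor, by 1.93 and Gfra2, the neurturin co-receptor, by 0.77 on the log2 scale. The calls of Gfra2 and Gfra3 were lost after quantile normalization (adjusted p = 0.177 and 0.0686, limma). The call of Gfra2 was also lost without wild-type replicate 2 or KO replicate 3, and that of Gfra3 without KO replicate 1. Nrtn, which encodes neurturin itself, fell from 14.9 ± 0.0628 to 5.18 ± 1.82 CPM (SD, n = 3 each), with a log2 fold change of -1.46 (adjusted p = 0.00132, edgeR). Ret, the kinase these co-receptors signal through, had between 1 and 10 counts and was not tested.

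Among the neuregulins, Nrg4, which brown adipocytes secrete and which promotes neurite outgrowth, fell from 142 ± 36.1 to 45.7 ± 5.14 CPM (SD, n = 3 each), with a log2 fold change of -1.64 (adjusted p = 0.000136, edgeR). Fbxo22 overlaps the end of Nrg4 on the other strand, and its level was between 58.0 and 64.6 CPM in all 6 mice, without a difference of this kind. Nrg2 was higher (log2 fold change 1.74) on at most 5 counts in a wild-type mouse, and its call was lost in 7 of 9 alternatives, among them leaving out wild-type replicate 3, KO replicate 1 or KO replicate 2. Of the receptors, Egfr (0.94, adjusted p = 0.0539, edgeR) and Erbb2, whose end Mien1 overlaps on the other strand (0.55, adjusted p = 0.231, edgeR), did not pass the threshold, but Egfr did in 6 of 13 alternatives, among them library size alone (adjusted p = 0.00955, edgeR), and Erbb2 did with library size alone.

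Axon guidance genes rose more often than they fell, with 10 of 20 tested genes higher and 2 lower. With library size alone 15 were higher and 1 lower, and after quantile normalization 7 were higher and 2 lower. Slit1, a repellent of growing axons, had 0, 0 and 3 counts in wild-type and 351, 292 and 908 counts in Letmd1 KO mice. No wild-type mouse exceeded the floor of 3 counts, and the summed counts differed 405-fold (95% interval from 138-fold to 1966-fold, counting error only). Unc5b, a netrin receptor, rose from 19.7 ± 2.07 to 164 ± 40.0 CPM (SD, n = 3 each), and Ntn1, which encodes netrin-1, rose by 2.79 on the log2 scale. Nrp1, the semaphorin and VEGF co-receptor, fell from 808 ± 43.9 to 377 ± 35.0 CPM (SD, n = 3 each). Plxna1, which signals with it, was lower by the test (-0.55), but that call was lost in 6 of 13 alternatives, among them library size alone (adjusted p = 0.57, edgeR) and leaving out wild-type replicate 3, KO replicate 1 or KO replicate 3.

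Other synaptic adhesion proteins moved in the direction of Tenm2 more often than in that of Clstn3. Of 15 tested genes 8 were higher and 1 lower, and 22 of the 37 listed had too few counts to be tested. With library size alone 10 were higher and 1 lower, and after quantile normalization 6 were higher and 2 lower. Nrcam rose from 9, 4 and 0 counts in wild-type to 88, 78 and 260 in Letmd1 KO mice, with a log2 fold change of 4.14 that was 4.82 without wild-type replicate 1. L1cam, its relative on axons and Schwann cells, rose by 3.17, and Nrxn2, a presynaptic neurexin, by 1.97 on the log2 scale. Ptprd, a receptor phosphatase that organises synapses, fell from 144 ± 9.54 to 42.6 ± 7.67 CPM (SD, n = 3 each), with a log2 fold change of -1.76 (adjusted p = 2.1e-05, edgeR).

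**Figure D4:**
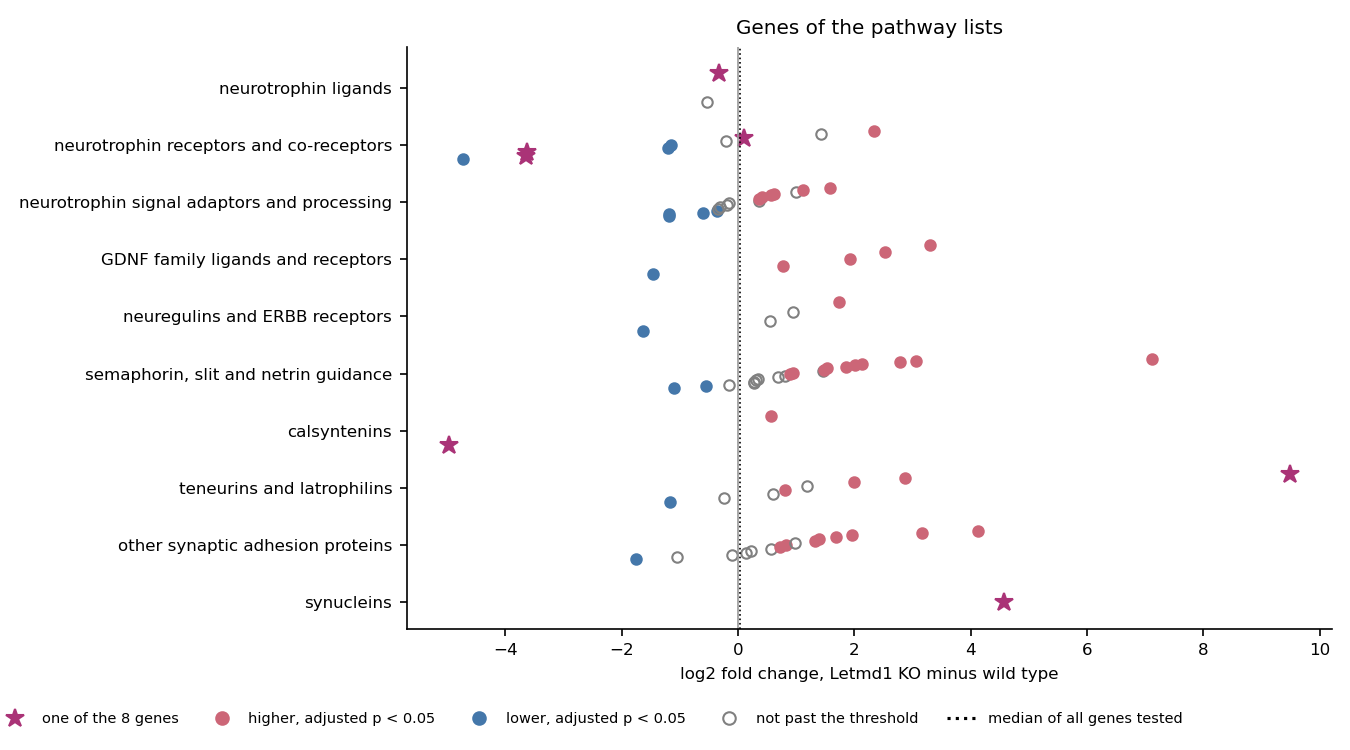
Log2 fold change (Letmd1 KO minus wild type) of the tested genes reported from 10 pathway lists, with stars for the 8 genes described (S100b is in none of them), filled circles for other genes past the threshold (red higher, blue lower), open circles for those that were not, and a dotted line at the median of all genes tested. GDNF, guidance and other synaptic adhesion genes lie mostly to the right of that line, and neurotrophin receptors and co-receptors mostly to its left.

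Markers of the cell types that BAT holds are given beside the 8 genes. The count of each marker list stands beside the 23.7% of all genes tested that were called higher and the 22.3% called lower. Of 20 noradrenergic neuron markers, 6 had enough counts to be tested. Th and Dbh, the enzymes that make noradrenaline, and Prph and Nefl had no counts in any mouse. The summed level of the list was between 107 and 136 CPM in wild-type and between 90.4 and 109 CPM in Letmd1 KO mice. Most of it came from Phox2a, whose end is overlapped on the other strand by Inppl1 at between 128 and 220 CPM, so that its call (log2 fold change -0.49) cannot be assigned to either gene, and that call was lost with library size alone, after quantile normalization and without KO replicate 1. Uchl1, a ubiquitin hydrolase of neurons, rose from 6, 3 and 2 to 36, 23 and 65 counts (log2 fold change 2.64). Gap43 of growing axons was called higher as well (adjusted p = 0.026, edgeR). It had few counts, 5, 2 and 0 in wild-type and 10, 8 and 34 in Letmd1 KO mice. Syp had 25, 46 and 35 counts in wild-type and 12, 6 and 49 in Letmd1 KO mice. Neither Syp (log2 fold change -1.11, adjusted p = 0.0714, edgeR) nor Stmn2 (0.33, adjusted p = 0.559, edgeR) passed the threshold. Slc18a2, the vesicular monoamine transporter, had between 35 and 59 counts in every mouse and did not pass the threshold (log2 fold change 0.22, adjusted p = 0.598, edgeR). Npy, a neuropeptide of sympathetic nerves, had no counts in wild-type and 3, 60 and 3 in KO animals.

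Schwann cell markers were higher, with 12 of 18 tested genes called higher, the other 6 not past the threshold, and a median log2 fold change of 1.38. Their summed level was 206, 212 and 140 CPM in wild-type and 509, 404 and 420 CPM in Letmd1 KO mice, without overlap. Mal, a myelin protein, rose by 3.62, and Egr2, the transcription factor of myelination, by 2.64 on the log2 scale. L1cam is on this list as well. S100b and Ngfr, which Schwann cells make too, did not move with these markers past the threshold. The part of Schwann cell RNA in the levels of Sncg, Tenm4, Gfra3 and Nrcam was not tested.

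Most brown adipocyte markers were lower in Letmd1 KO BAT, as were Clstn3, Ntrk2 and Ntrk3. Of 12 genes 10 were lower, 2 did not pass the threshold, and their summed level was between 43230 and 48810 CPM in wild-type and between 14510 and 18000 CPM in Letmd1 KO mice. Most of that sum came from Fabp4, with a mean of 28000 CPM in wild-type and 10450 CPM in Letmd1 KO BAT. Ucp1, the uncoupling protein, fell by 4.05 and Elovl3 by 4.52 on the log2 scale, and Dio2, which activates thyroid hormone, fell by 2.46, or by 1.77 without wild-type replicate 1. Without KO replicate 2 the log2 fold change of Elovl3 was -5.47. Within the KO mice the markers were mixed. Replicate 2 had the highest Elovl3, as it had for Clstn3 and Ntrk2, but the lowest Ucp1 (254.5 CPM, against 414.2 and 475.5 CPM). Other markers of the list went either way in that mouse. The median of the list was -1.39.

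Skeletal muscle markers varied between mice of both genotypes. Their summed level was 86.4, 526 and 98.2 CPM in wild-type and 485, 376 and 1380 CPM in Letmd1 KO mice, with 4 of 15 tested genes higher and 11 not past the threshold. After quantile normalization 10 of them were called higher (limma).

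Fibroblast markers had 9 of 9 tested genes higher, with a summed level from 1452 to 1979 CPM in wild-type and from 4072 to 6868 CPM in Letmd1 KO mice. Most of that sum came from collagen genes. Macrophage markers had 10 of 10 higher, from 186 to 259 CPM against 1106 to 1841 CPM. KO replicate 2 had the highest sum of both lists, and the lowest Tenm2 and S100b level among the KO mice. Mural cell markers had 2 of 10 higher and 2 lower, near the 23.7% and 22.3% of all genes tested, with sums that overlapped. With library size alone the mural sums were between 316 and 342 CPM in wild-type and between 422 and 464 CPM in Letmd1 KO mice, with 5 genes higher and 1 lower. Endothelial markers had 1 of 10 higher and 3 lower, with sums between 611 and 726 CPM in wild-type and between 425 and 537 CPM in Letmd1 KO mice. With library size alone the endothelial sums of the genotypes overlapped. The part of every marker list in the levels of the 8 genes was not tested.

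**Figure D5:**
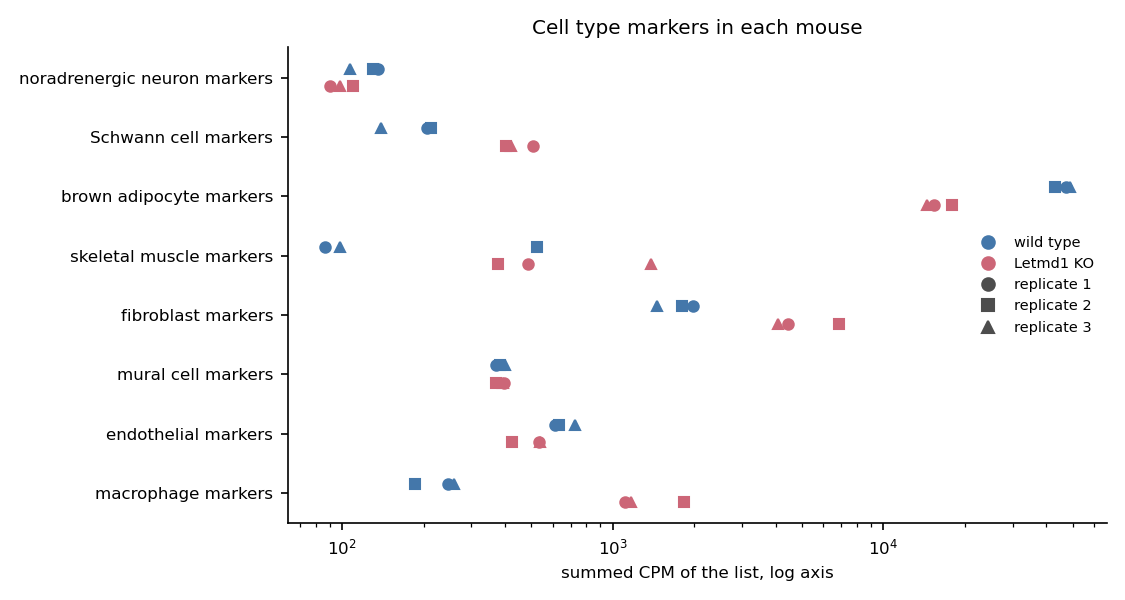
Summed CPM (TMM-scaled, log axis) of 8 lists of cell type markers in each wild-type (blue) and Letmd1 KO (red) mouse, with the symbol giving the replicate. Schwann cell, fibroblast and macrophage sums are higher and brown adipocyte sums lower in all Letmd1 KO mice, mural cell sums overlap under this scaling but not with library size alone, and wild-type replicate 2 lies among the KO mice for skeletal muscle.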

How the data were processed

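RNA of BAT from 3 wild-type and 3 Letmd1 KO mice was sequenced as QuantSeq libraries, in single-end reads of 75 bases. The authors aligned them with Bowtie2, took unique as well as multiple alignments into gene counts with Bedtools, and deposited the raw counts of each mouse by gene symbol. The build is mm10 per the submitters' processing notes. The gene annotation and the use of strand are not given in the sources used here. Besides the overlaps named above, genes on the other strand extend over the annotated ends of Gfra1, Plxna1 and Elovl3, with the same limit.

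Counts were scaled by TMM and tested with edgeR's quasi-likelihood test on all genes that passed its default filter (minimum count 10, minimum total 15), with Benjamini-Hochberg adjustment and a prior count of 2 (R 4.3.3, edgeR 4.0.16). DESeq2 1.42.0 and limma 3.58.1 after quantile normalization, the normalization the study's methods name, were alternatives. Others were library size alone, no filter, a mean of at least 50 counts, a prior count of 0.5, the replicate number as a block and leaving out each mouse. Each standard error of an edgeR fold change was derived from the F statistic of the test and the fold change fitted without the prior count. The steps were tested on simulated counts. Counts of replicates within a genotype were no closer than 11.5 in chi-square per degree of freedom, so each mouse was counted as a sample.

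The 8 genes and the 19 gene lists were chosen with earlier results of these data known. Named are the 8 genes, all tested genes of lists with under 6 of them, in longer lists up to 3 genes in each direction past the threshold with the largest change, at least 20 counts on average and separate genotypes, and the 3 genes most like each of the 8. For the muscle, fibroblast, vascular and macrophage lists, counts and sums are given in place of genes. A few more, such as Clstn2, Sorl1, Tenm3, Ret, Th, Gap43, Syp, Stmn2, Slc18a2, Npy and Fabp4, were named after their values were seen. Gene positions came from GENCODE vM21 and promoter sequences from RefSeq, both on GRCm38, and all 8 symbols matched GENCODE. A few listed genes are counted in the lists' totals but are not reported here.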

Additional observations from a re-analysis of the deposited data

How the results depend on the processing

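The log2 fold changes of Clstn3, Ntrk2, Ntrk3, Sncg and Tenm2 kept their direction under every alternative run, and leaving out KO replicate 2 moved Clstn3 to -5.79 and Ntrk2 to -4.25. With library size alone 5899 genes were called higher and 1368 lower, in place of 3082 and 2896, and the median log2 fold change of the 8 genes was 0.28 in place of -0.11. That median was -0.64 after quantile normalization and -1.59 with a mean of at least 50 counts, a filter that removes Ngfr and Ntf3. The log2 fold change of the endothelial gene Cdh5 turned positive with library size alone (0.083). For Cdh5, for the counts and for the median of the 8 genes, library size alone also moved the median of all genes (from 0.03 to 0.44), by construction. The median with a mean of at least 50 counts is that of the 6 genes left. For the other changes the cause was not tested. Mice of equal replicate number did not deviate together (correlations 0.0691, -0.111 and -0.0865), and mice of unequal number had correlations from -0.0931 to 0.191. With 3 mice per genotype such values cannot exclude that some mice shared a litter or a batch. With the replicate number as a block, 5599 genes were called in place of 5978, 2886 higher and 2713 lower. Depth limits the wild-type level of Tenm2, with 2 to 6 counts per mouse, while Ntf3, Ngfr and Bdnf had 4 to 71.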
